A study of Cannabis sativa with 10 samples.

Results

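The shoot apex of Cannabis sativa changes from making leaves to making flowers when plants are induced to flower, and the RNA of apices before that change was compared with that of apices at the third week of female flowering. The comparison was chosen by the labels alone: the 2 libraries of female week 3 apices were set against the 2 libraries of vegetative apices, 4 of the 10 libraries in the series. All 4 libraries came from shoot apex tissue of genotype A3. The vegetative libraries carry the treatment label "vegetative" and the female week 3 libraries the label "female flower induction". The other groups, each with 2 libraries of the same genotype and tissue, were female week 1, with the same treatment as female week 3, and male weeks 1 and 3, whose treatment label is male flower induction with STS, read here as silver thiosulfate. The labels give no plant age, day length or number of plants per library, so flowering stage cannot be told apart from age or growing conditions. They also do not say that the replicates were separate plants, so the p-values capture no more than the spread among these libraries, and that may be technical.

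Flowers form when the shoot apical meristem gives rise to floral meristems, in which MADS-box transcription factors act in combinations that decide which organ is made. Female cannabis flowers consist mainly of a pistil enclosed by bracts, and these bracts carry glandular trichomes, the hair-like structures that make cannabinoids and terpenes. Leaf development and photosynthesis are the main occupation of vegetative shoot tips, which hold young leaves around a small meristem.

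The level of each gene was FPKM, a count of fragments per length of gene and depth of library, which allows levels of different genes to be compared. Of 35192 genes in the table, 16886 had a mean of at least 1 FPKM in vegetative or in female week 3 apices and were tested with limma on the log2(FPKM + 1) scale. In what follows, a replicate called female is of female week 3. Log2 differences are female week 3 minus vegetative on that scale, given with their standard error; the added 1 understates the change of genes with low levels. P-values were adjusted over all 16886 genes with the Benjamini-Hochberg method, and a gene was called changed at an adjusted p under 0.05. In these whole apices, fewer cells of a type and less RNA per cell cannot be told apart. Replicates correlated at 0.985 in vegetative and 0.989 in female week 3 apices across the tested genes, and a vegetative with a female week 3 library at 0.888 to 0.902. FPKM totals were 706260.3 and 750743 in vegetative and 630805 and 603616 in female week 3 libraries, and the share of the total held by ribosomal RNA genes was 1.2% and 2.28% against 0.623% and 0.711%. Calls with every library scaled to the same total (TPM, below called equal totals) are given where a count moved by more than 1.5 times. The depth in reads is unknown.

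Female week 3 apices differed from vegetative apices in a large share of the expressed genes, with more and larger rises than falls. Of the 16886 genes, 3629 were called higher, which is 21.5%, and 3135 lower, which is 18.6%, so that 6764 or 40.1% were called in either direction. A change of at least 1 log2 unit was called for 1337 higher and 992 lower genes, together 13.8% of those tested. At 3 log2 units or more the counts were 127 higher and 44 lower, and at 5 or more 26 higher and 7 lower. The median log2 difference over all tested genes was 0.02. The balance between higher and lower depended on scaling: with every library scaled to the same total (TPM), which moved the median of all genes to 0.24, 5871 genes were called higher and 1953 lower, so 75% of the calls were higher against 53.7% as deposited. That scaling raised the median of each of the 37 gene lists described below, by 0.17 to 0.36 log2 units. The count of 6764 also fell to 4281 without female week 3 replicate 1 and to 4171 without female week 3 replicate 2. The authors' deposited table called 6991 genes for the same pair of groups, and 6075 genes were called by both, 89.8% of the limma calls and 88.6% of the 6855 calls in the authors' deposited table among the tested genes; none of the 6075 differed in sign.

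**Figure D1:**
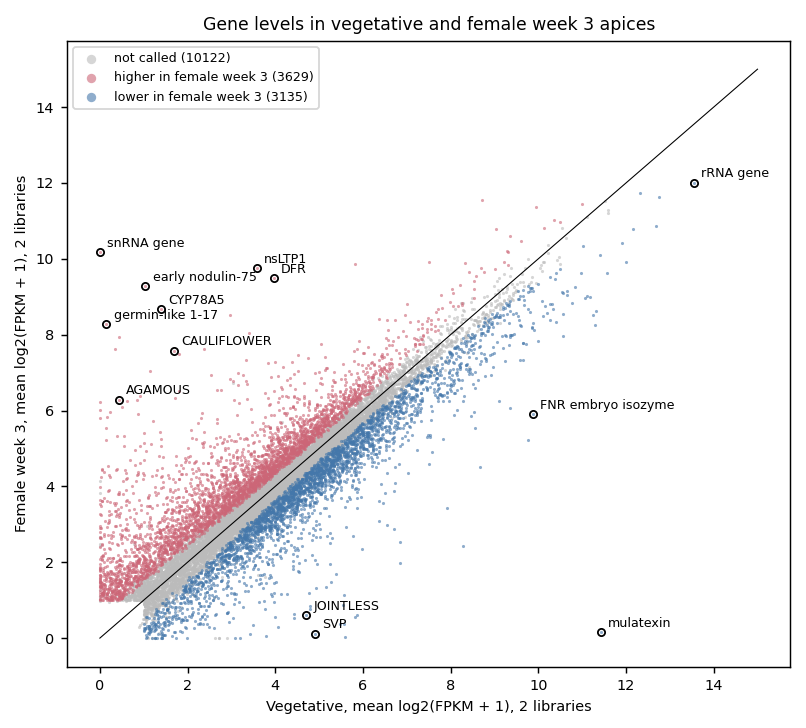
Mean log2(FPKM + 1) of each of the 16886 tested genes in vegetative (x axis) and female week 3 apices (y axis), 2 libraries each; red points are the 3629 genes called higher, blue points the 3135 called lower, grey points those not called, and the line marks equal levels. Circled genes are described in the text, with early nodulin-75 and germin-like 1-17 (subfamily 1 member 17) far above the line and mulatexin far below it.

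The steepest rises included genes of cell wall, secreted and lipid-binding proteins, and each of those named here was near 0 or at most 11.5 FPKM in vegetative apices. Genes named for their rank were called, had a named product and a mean of 10 FPKM or more in 1 group, and their libraries did not overlap, as was true of 12913 genes or 76.5%. The largest rise was that of early nodulin-75 (LOC115722790; chromosome 9, 482445 to 483735, build ASM2916894v1), a proline-rich protein. It stood at 3.21 and 0 FPKM in vegetative and 665 and 579 FPKM in female week 3 apices (log2 difference 8.24 ± 0.56, adjusted p = 1.80e-05). A germin-like protein of subfamily 1, member 17 (LOC115718819; chromosome 2, 11596094 to 11597209), one of a family of secreted cupin proteins, was at 0.225 and 0 FPKM in vegetative and 319 and 302 FPKM in female week 3 apices (log2 difference 8.14 ± 0.38, adjusted p = 3.07e-07). Both genes were near 0 in the vegetative libraries and abundant in both female ones. Further genes described as germin-like subfamily 1 member 17 behaved alike: LOC115720654 was listed at 0 in both vegetative libraries and at 73.5 and 72.9 FPKM in female week 3, and LOC115720678 at 0 and at 13 and 17.1 FPKM. As copies of one description, these genes may share reads, and how the counting treated shared reads is not given in the sources used here.

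RD22 (LOC115719008; chromosome 2, 553047 to 554750), a BURP-domain protein known from drought and abscisic acid responses in Arabidopsis, was at 0.729 and 0.0628 FPKM in vegetative and 276 and 215 FPKM in female week 3 apices (log2 difference 7.50 ± 0.23, adjusted p = 3.97e-08). CYP78A5 (LOC115709619; chromosome 3, 68098260 to 68100876), a cytochrome P450 that in Arabidopsis promotes organ growth, rose from 2.55 and 0.954 to 448 and 366 FPKM (log2 difference 7.27 ± 0.39, adjusted p = 7.58e-07). For both genes the higher replicate of each group was replicate 1. Also among the 15 steepest rises were a non-specific lipid-transfer protein 1 (LOC115696872), which carries lipids in the outer wall and went from 10.6 and 11.5 to 1073 and 694 FPKM, and a pair of MLP-like (major latex protein-like) genes. Of these, LOC115699451 differed between its female replicates, at 346 and 111 FPKM in female week 3 against 0.593 and 0 in vegetative apices (log2 difference 7.29 ± 0.47, adjusted p = 2.61e-06). A pyruvate decarboxylase (LOC115718871), the enzyme that leads pyruvate into fermentation, was listed at 0 in both vegetative libraries and at 61.7 and 49.5 FPKM in female week 3. A pectinesterase inhibitor (LOC115708921) was likewise listed at 0 and then at 68.1 and 60.4 FPKM, the extensin-like EPR1 (LOC115722580) went from 2.52 and 2.43 to 221 and 147, and the cysteine protease vignain (LOC115712336) from 0.184 and 0.0513 to 53.9 and 58 FPKM.

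The steepest fall was that of mulatexin (LOC115715128; chromosome 4, 14360179 to 14361863), a chitin-binding defence protein first described in mulberry latex. It was among the most abundant transcripts of vegetative apices, at 2531 and 2984 FPKM, and almost absent from female week 3 apices, at 0.179 and 0.0445 FPKM (log2 difference -11.27 ± 1.86, adjusted p = 0.00672). Polyphenol oxidase I (LOC133033538), which oxidises phenols after wounding, was at 55.3 and 39.6 FPKM in vegetative and 0.0249 and 0 FPKM in female week 3 apices (log2 difference -5.56 ± 0.17, adjusted p = 3.94e-08). A polygalacturonase inhibitor (LOC115699588), a protein that blocks pectin-degrading enzymes of fungi, was at 52.1 and 59.1 FPKM in vegetative and 0.239 and 0.758 FPKM in female week 3 apices (log2 difference -5.26 ± 0.21, adjusted p = 1.37e-07). Both genes were below 1 FPKM in both female week 3 libraries.

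Lipid enzymes among the 15 steepest falls were a stearoyl-ACP desaturase (LOC115697753), which makes the first double bond of fatty acids, from 60.6 and 54.3 to 0.554 and 0.508 FPKM; phospholipase A1-II 4 (LOC115714613), from 44.6 and 47.8 to 0.264 and 0.306; patatin-like protein 2 (LOC115696747), a lipid hydrolase, from 113 and 113 to 2.5 and 3.43; and the fatty acyl-CoA reductases FAR8-like (LOC133036463) and FAR4 (LOC115708343), which make the alcohols of waxes and suberin. FAR8-like went from 46.7 and 45.7 to 0.934 and 1.48 FPKM and FAR4 from 135 and 97.1 to 5.22 and 4.35 FPKM. The thioredoxin-like CDSP32 (LOC115700030), a chloroplast protein of the oxidative stress response, was lower (log2 difference -4.16 ± 0.28, adjusted p = 3.18e-06), though its vegetative replicates themselves stood at 293 and 560.3 FPKM. A DEAD-box helicase 9-like gene (LOC133039142) fell from 835 and 902 to 40.1 and 33.1 FPKM and a putative cell wall protein (LOC115700282) from 256 and 229 to 10.4 and 9.13 FPKM.

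**Figure D2:**
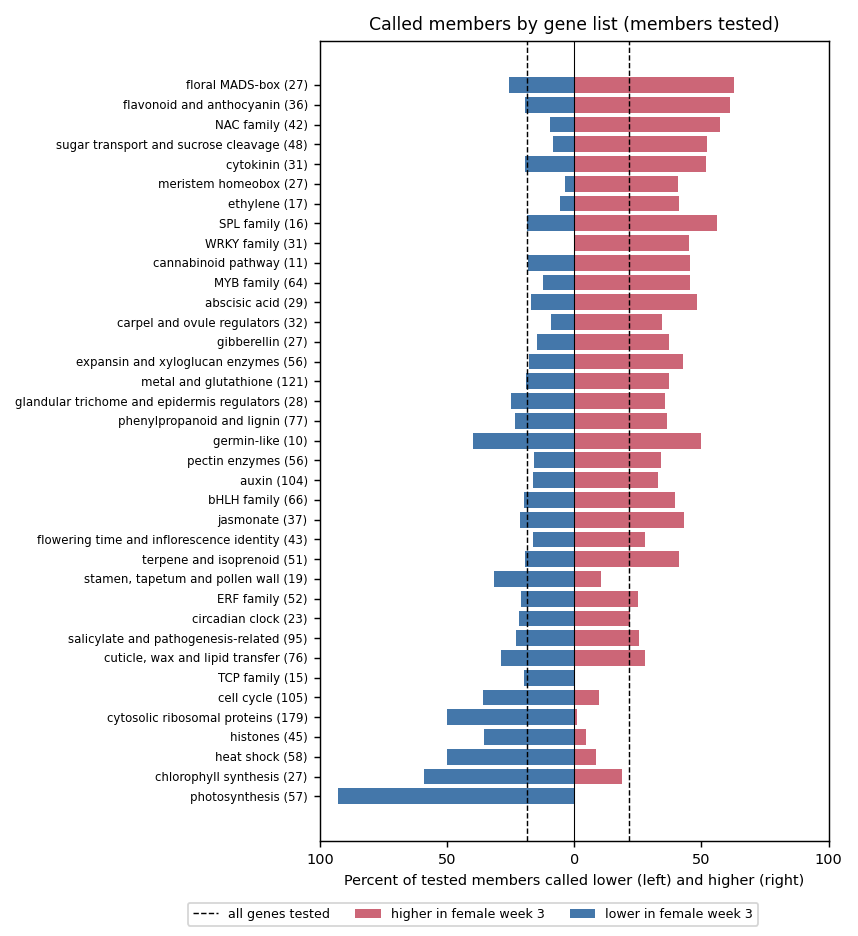
Percent of the tested members of each of 37 gene lists called higher (red, right) and lower (blue, left) in female week 3 apices, with the number tested in parentheses and lists ordered by their median log2 difference. The dashed lines mark the shares over all 16886 genes, 21.5% higher and 18.6% lower; photosynthesis, with 53 of 57 members lower, stands at the bottom and floral MADS-box genes, with 17 of 27 higher, at the top.

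Floral MADS-box genes showed the largest median difference of the 37 lists. Of 34 such genes in the table, 27 passed the level filter, 17 were higher, 7 lower and 3 not called, and the median log2 difference was 3.41 against 0.02 over all genes. Since a gene silent in both groups is removed by the filter, the 27 are those with some expression in either group. Several genes of the carpel and ovule class were near 0 in vegetative apices. AGAMOUS (LOC115697576; chromosome 7, 61415108 to 61423167), which specifies stamens and carpels and ends the meristem, was at 0.72 and 0.0536 FPKM in vegetative and 88.5 and 66.5 FPKM in female week 3 apices (log2 difference 5.85 ± 0.26, adjusted p = 2.27e-07). AGL11 (LOC133031811; chromosome X, 71236908 to 71244796), whose Arabidopsis counterpart specifies ovules, was at 1.12 and 0.513 FPKM in vegetative and 83.8 and 69.8 FPKM in female week 3 apices (log2 difference 5.43 ± 0.22, adjusted p = 1.31e-07). The groups did not overlap in either gene, and in both the vegetative level was at most 1.12 FPKM. A second gene described as AGAMOUS (LOC115700192) is closest to Arabidopsis AGL11, but at only 32% identity. This second gene was at 2.91 and 3.76 FPKM in vegetative and 2.88 and 2.38 FPKM in female week 3 apices and was not called (adjusted p = 0.384). The Bsister genes FBP24 (LOC115700907) and FBP24-like (LOC115707234), of a class that acts in ovules and seed coats, went from 0 and 0 to 11.9 and 9.38 FPKM and from 0 and 0.08 to 13.2 and 9.76 FPKM. MADS1 (LOC115698701), closest to SHATTERPROOF 1 of the fruit valve margin, went from 0.31 and 0.0578 to 17.8 and 17.9 FPKM.

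Genes closest to Arabidopsis SEPALLATA genes, the partners with which other MADS proteins form complexes, rose as well. They are described as MADS2 (3 genes), MADS4 and, in the case of LOC115701144, CAULIFLOWER A, which went from 0.194 and 0.0728 to 13.8 and 13.3 FPKM. Of the MADS2 genes, LOC115700827 (44067771 to 44084580) and LOC115700828 (44080221 to 44084708) overlap on chromosome 8. Their values may therefore rest on shared reads. MADS4 (LOC115712087) was at 0.871 and 0.28 FPKM in vegetative and 83.9 and 66.3 FPKM in female week 3 apices (log2 difference 5.61 ± 0.22, adjusted p = 1.32e-07), and MADS2 (LOC115700828) at 0.771 and 0.914 FPKM in vegetative and 67 and 52.2 FPKM in female week 3 apices (log2 difference 5.03 ± 0.26, adjusted p = 6.33e-07). CAULIFLOWER (LOC115704295) reached the highest female week 3 level of the list, 181 and 199 FPKM against 3.77 and 1.2 in vegetative apices (log2 difference 5.88 ± 0.34, adjusted p = 1.10e-06). Despite its description, the closest Arabidopsis protein of this gene is AGL16, at 48.9% identity. Further genes described as CAULIFLOWER A differed among themselves. LOC115702300 went from 0.377 and 0 to 60.3 and 61.7 FPKM. LOC115701438 was not called, at 21.9 and 21.7 and 25.3 and 25 FPKM (adjusted p = 0.248, or 0.0225 with equal totals). LOC115725163 fell from 25.3 and 27.8 to 0.61 and 0.979 FPKM. The first of these 3 is closest to Arabidopsis FRUITFULL, the second to APETALA1 and the third to AGL69, so the name in the table covers genes of different kinds. Another CAULIFLOWER A gene closest to APETALA1, LOC115698549, rose from 3.43 and 3.04 to 44.2 and 43.8 FPKM (log2 difference 3.41 ± 0.22, adjusted p = 2.58e-06). The 2 genes closest to APETALA1 thus differed.

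The MADS-box genes that fell included regulators of flowering time. SVP (LOC115721274; chromosome 2, 5148496 to 5156195), in Arabidopsis a repressor of flowering, was at 28.7 and 29.5 FPKM in vegetative and 0.181 and 0 FPKM in female week 3 apices (log2 difference -4.79 ± 0.18, adjusted p = 1.29e-07). JOINTLESS (LOC115714329; chromosome 4, 66455691 to 66461205), its close relative, was at 23.6 and 26.8 FPKM in vegetative and 0.434 and 0.611 FPKM in female week 3 apices (log2 difference -4.10 ± 0.16, adjusted p = 1.29e-07), and a second gene of that name (LOC115720605) was lower as well (log2 difference -1.98 ± 0.21, adjusted p = 7.46e-05). SOC1 (LOC115706939), which integrates flowering signals, fell from 43.1 and 39.2 to 15.9 and 17.2 FPKM and AGL42 (LOC115717309), a SOC1 relative, from 29.4 and 29.6 to 10.7 and 11.1 FPKM. PMADS 2 (LOC115699531), a B-class gene of petal and stamen identity, stood at 1.96 and 2.68 FPKM in vegetative and 0 and 0.231 in female week 3 apices (log2 difference -1.57 ± 0.17, adjusted p = 9.05e-05). In both female libraries SVP, both JOINTLESS genes, PMADS 2 and the CAULIFLOWER A gene LOC115725163 were under 1 FPKM, while SOC1 and AGL42 were above 10 FPKM.

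**Figure D3:**
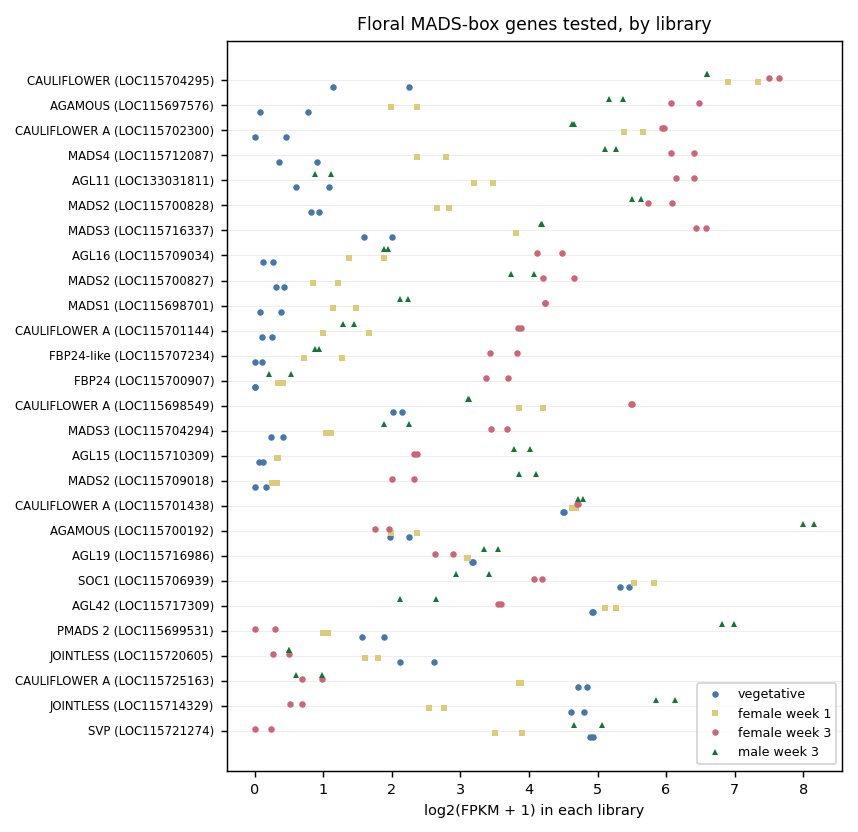
Level of the 27 tested floral MADS-box genes in each library as log2(FPKM + 1), with 2 points per group for vegetative, female week 1, female week 3 and male week 3 apices, ordered by the log2 difference between female week 3 and vegetative. Female week 3 points lie right of the vegetative points for the 17 genes called higher, from CAULIFLOWER at 181 and 199 FPKM downwards, and left of them for SVP, JOINTLESS and the others called lower.

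Of the flowering time and inflorescence identity list, 12 of 43 genes were higher and 7 lower, with a median of 0.14 (0.08 with female replicate 2 left out). These shares, 27.9% and 16.3%, were near the 21.5% and 18.6% over all genes, so the genes named next do not stand for the list. Higher flowering time and inflorescence genes numbered 20 with equal totals. CEN-like protein 1 (LOC115715930), of the family of TERMINAL FLOWER 1 that keeps shoot tips vegetative, was at 7.32 and 12.7 FPKM in vegetative and 0.0754 and 0.0749 FPKM in female week 3 apices (log2 difference -3.31 ± 0.49, adjusted p = 5.43e-04). MOTHER of FT and TFL1 (LOC115707673), of the same family, fell from 3.7 and 3.1 to 0.52 and 0.723 FPKM, whereas TERMINAL FLOWER 1 itself (LOC115708910) was listed at 0 in vegetative apices and at 1.44 and 1.07 FPKM in female week 3. Genes described as bZIP transcription factor 27, a relative of the FT partner FD, went both ways: LOC115722367 rose from 0.214 and 0.371 to 6.26 and 7.18 FPKM, and LOC115723488 fell from 3.19 and 2.21 to 0.181 and 0.0528 FPKM. Among zinc finger genes named for the day length gene CONSTANS, CONSTANS-LIKE 6 (LOC115711648) fell from 22.7 and 37.7 to 1.71 and 1.32 FPKM and CONSTANS-LIKE 4 (LOC115703699) rose from 0.639 and 1.07 to 6.59 and 6.29 FPKM.

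Carpel and ovule regulators were more often higher than lower, 11 against 3 of 32, with a median of 0.31. These shares were 34.4% and 9.4%, against 21.5% and 18.6% over all genes. Higher carpel and ovule genes numbered 18 with equal totals. CRABS CLAW (LOC115699020; chromosome 8, 29339970 to 29342670), a YABBY protein of carpels and nectaries, was at 0.677 and 0.305 FPKM in vegetative and 22.8 and 18.6 FPKM in female week 3 apices (log2 difference 3.87 ± 0.24, adjusted p = 1.67e-06). YABBY 4 (LOC115712472), whose closest Arabidopsis protein is INNER NO OUTER of the outer ovule integument, was at 0 and 0.0841 FPKM in vegetative and 4.4 and 2.34 FPKM in female week 3 apices (log2 difference 2.03 ± 0.25, adjusted p = 1.68e-04). A putative bHLH086 gene (LOC115712570), closest to the Arabidopsis fruit gene INDEHISCENT, rose from 0.0306 and 0 to 9.06 and 7.83 FPKM. The leaf-side YABBY 5 (LOC115724567) moved the other way, from 105 and 106 to 22.5 and 20.9 FPKM (log2 difference -2.23 ± 0.12, adjusted p = 6.71e-07), as did HEC1 (LOC115714662), a regulator of the transmitting tract in Arabidopsis, from 8.63 and 4.7 to 0.547 and 0.639 FPKM. SPATULA (LOC115714981), the BEL1 homolog (LOC115716934) and an AP2-like AINTEGUMENTA gene (LOC115712812) were not called, with log2 differences of 0.18, 0.29 and 0.40. Vegetative apices held transcripts of these genes too, AINTEGUMENTA at 30.3 and 25.1 FPKM, and its call depended on scaling: it was past the threshold with equal totals (adjusted p = 0.0127) and in a fit of the 4 libraries alone (adjusted p = 0.0251).

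Of 42 genes on the stamen, tapetum and pollen wall list 19 passed the level filter, 2 being higher and 6 lower. Higher stamen and pollen wall genes numbered 1 with female replicate 1 left out, 0 with female replicate 2 left out and 0 with vegetative replicate 1 left out. The 42 genes summed to 229 and 232 FPKM in vegetative and 222 and 198 FPKM in female week 3 libraries. Stamen and tapetum markers were low in both groups, the sum over 8 of them being 2.44 and 2.68 FPKM in vegetative and 0.807 and 0.846 FPKM in female week 3 libraries. Of the 8, a DEFICIENS-like gene (LOC115695548), ABORTED MICROSPORES (LOC115706375) and MALE STERILITY 1 (LOC115723942) were listed at 0 in all 4 libraries.

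Photosynthesis genes had the highest share of calls in 1 direction among the 37 lists. None of 57 tested genes was higher and 53 were lower, with a median log2 difference of -1.57; the median was -1.35 when libraries were scaled to the same total, where all genes had a median of 0.24, with 1 gene higher and 50 lower. Their summed level was 46100.0 and 57476 FPKM in vegetative and 15591 and 14811 FPKM in female week 3 libraries. The more abundant Rubisco small subunit gene (LOC115714527), which encodes part of the enzyme that fixes carbon dioxide, was at 5561 and 7806 FPKM in vegetative and 1795 and 1946 FPKM in female week 3 apices (log2 difference -1.82 ± 0.32, adjusted p = 0.00141). The chlorophyll a-b binding gene with the highest vegetative level (LOC115696924), a light-harvesting protein of photosystem II, was at 3787 and 4383 FPKM in vegetative and 1012 and 904 FPKM in female week 3 apices (log2 difference -2.09 ± 0.18, adjusted p = 2.10e-05). Plastocyanin (LOC115722357), an electron carrier, went from 196 and 260.1 to 37.6 and 37 FPKM. Vegetative replicate 2 was above vegetative replicate 1 in each of these genes, by less than the distance to the female libraries.

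The steepest fall of the list was that of ferredoxin-NADP reductase, embryo isozyme (LOC115724444; chromosome 6, 74212155 to 74214282), which is not described as the leaf type. It was at 973 and 915 FPKM in vegetative and 57.6 and 59.8 FPKM in female week 3 apices (log2 difference -3.98 ± 0.17, adjusted p = 2.08e-07). Its relatives differed: the leaf-type isozyme (LOC115702780) went from 317 and 419 to 181 and 183 FPKM (adjusted p = 0.0143), a call lost without female week 3 replicate 1 (adjusted p = 0.0703) or 2 (0.0674) or vegetative replicate 2 (0.11). A root isozyme (LOC115697214) stood at 107 and 114 FPKM in vegetative and 124 and 111 in female week 3 apices and was not called (adjusted p = 0.632, or 0.0405 with equal totals). Another root isozyme gene (LOC115695589) was called lower, with means of 12.8 FPKM in vegetative and 0.036 FPKM in female week 3 apices (log2 difference -3.74, adjusted p = 3.63e-05). The leaf-type isozyme and both root isozymes were picked after their values were seen. Chlorophyll synthesis moved with the photosystems, 16 of 27 genes being lower and 5 higher, with a median of -0.82. The magnesium chelatase subunit ChlH (LOC115709882), at the entry to the chlorophyll branch, fell from 72.7 and 78.4 to 28.3 and 27.2 FPKM (log2 difference -1.41 ± 0.26, adjusted p = 0.00204). The 4 strongest of the 5 higher genes are all described as protochlorophyllide-dependent translocon components, a name that refers to plastid import and not to a step of the synthesis. Leaf mesophyll markers are photosynthesis genes too, and 18 of 18 tested were lower, their sum falling from 25309 and 31359 to 7458.9 and 7121.5 FPKM; the part of leaf tissue in the sampled apices was not tested.

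**Figure D4:**
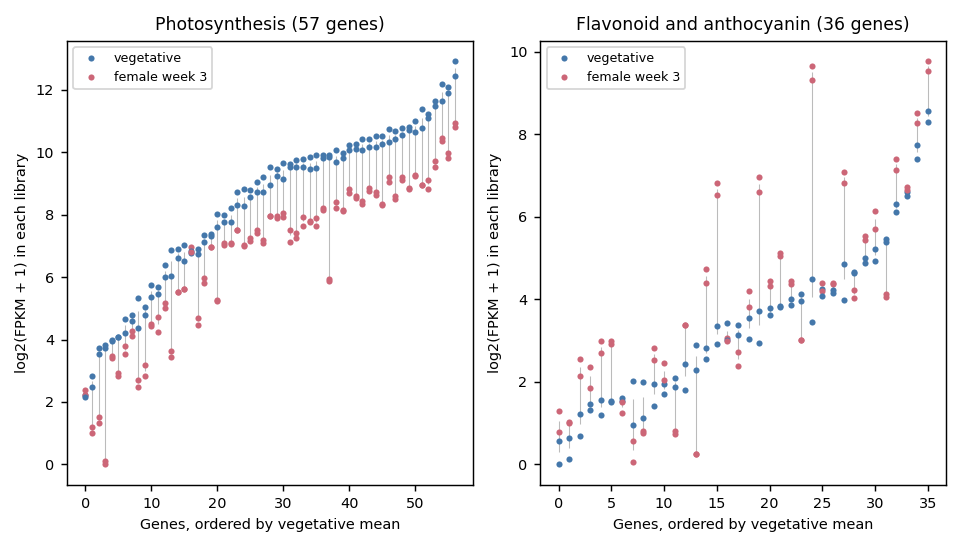
Level of each tested photosynthesis gene (left, 57 genes) and flavonoid gene (right, 36 genes) as log2(FPKM + 1) in the 2 vegetative (blue) and 2 female week 3 libraries (red), genes ordered by their vegetative mean and lines joining the group means. On the left red points lie below blue ones for all 53 genes called lower, while on the right most lie above, the highest rise being that of dihydroflavonol 4-reductase to 808 and 636 FPKM.

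Flavonoid and anthocyanin genes moved in the opposite direction, 22 of 36 being higher and 7 lower with a median of 0.70. Higher flavonoid genes numbered 14 with female replicate 1 left out. Lower flavonoid genes numbered 4 with vegetative replicate 2 left out. Rises were called at early and late steps of the pathway. A naringenin-chalcone synthase-like gene (LOC115724170), for the first step, was at 373 and 314 FPKM in vegetative and 874 and 736 FPKM in female week 3 apices (log2 difference 1.23 ± 0.16, adjusted p = 2.86e-04), and chalcone-flavanone isomerase (LOC115716382), for the second, at 67.8 and 78.5 FPKM in vegetative and 168 and 139.6 FPKM in female week 3 apices (log2 difference 1.06 ± 0.17, adjusted p = 0.001). Both genes were chosen for their place in the pathway after values were seen. A flavonoid 3'-monooxygenase (LOC115709933), which adds a hydroxyl group to the flavonoid ring, was at 9.26 and 6.58 FPKM in vegetative and 111 and 91.1 FPKM in female week 3 apices (log2 difference 3.52 ± 0.16, adjusted p = 2.68e-07).

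The largest difference was at dihydroflavonol 4-reductase (LOC115710150; chromosome 3, 46545333 to 46548664), the entry to anthocyanins and proanthocyanidins, with 21.5 and 9.88 FPKM in vegetative and 808 and 636 FPKM in female week 3 apices (log2 difference 5.52 ± 0.30, adjusted p = 7.51e-07). Leucoanthocyanidin dioxygenase (LOC115716756), the next enzyme, went from 27.8 and 14.8 to 135 and 112 FPKM, and anthocyanidin reductase (LOC115708131), which leads to proanthocyanidins, from 12.2 and 6.63 to 123 and 95.5 FPKM (log2 difference 3.45 ± 0.27, adjusted p = 8.49e-06). For each of these 3 genes vegetative replicate 1 was above replicate 2, and both were below both female libraries. Glycosylation genes were split: an anthocyanidin 3-O-glucosyltransferase 2-like gene (LOC115699390) rose from 13.3 and 13 to 33.9 and 32.2 FPKM, and an anthocyanidin 5,3-O-glucosyltransferase-like gene (LOC115716673) fell from 43.1 and 40.7 to 16.5 and 15.6 FPKM.

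The phenylpropanoid and lignin list, which supplies the precursors of flavonoids, was mixed, with 28 of 77 higher and 18 lower and a median of 0.28. Higher phenylpropanoid genes numbered 18 with vegetative replicate 2 left out. Laccase-15 (LOC115705062), an oxidase that in Arabidopsis acts on flavonoids and lignin in the seed coat, was at 0.197 and 0 FPKM in vegetative and 50.9 and 40.7 FPKM in female week 3 apices (log2 difference 5.41 ± 0.23, adjusted p = 2.10e-07). Dirigent protein 5 (LOC115716167), which guides phenol coupling, rose from 8.65 and 7.42 to 83.2 and 63.3 FPKM. A phenylalanine ammonia-lyase gene (LOC115709383), for the first step of the pathway, fell from 23.8 and 22.8 to 4.67 and 4.16 FPKM (log2 difference -2.17 ± 0.15, adjusted p = 4.08e-06), and a hydroxycinnamoyltransferase-like gene (LOC133039577) from 248 and 291 to 59.8 and 56 FPKM.

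Of 23 listed genes of cannabinoid synthesis, 11 were tested, 5 being higher and 2 lower, 2 of them by 1 log2 unit or more. Their median of 0.37 was 0.09 with female replicate 1 or vegetative replicate 1 left out. Higher cannabinoid genes numbered 3 with female replicate 1 left out, 3 with female replicate 2 left out, 3 with vegetative replicate 1 left out and 2 with vegetative replicate 2 left out. Lower cannabinoid genes numbered 1 with female replicate 2 left out and 1 with vegetative replicate 2 left out. An olivetolic acid cyclase-like gene (LOC115723438), which forms the cannabinoid ring, was abundant in both groups, at 1318 and 1686 FPKM in vegetative and 2026 and 1582 FPKM in female week 3 apices, and was not called (log2 difference 0.26 ± 0.33, adjusted p = 0.557). Hexanoyl-CoA synthase-like (LOC115709751), which provides the starter unit, rose from 44.9 and 48.8 to 95.2 and 81.2 FPKM (log2 difference 0.89 ± 0.13, adjusted p = 4.29e-04). Of the genes for the prenyltransferase that joins olivetolate to geranyl diphosphate, LOC115713215 rose from 14.6 and 12.9 to 48.9 and 42.1 FPKM and LOC115713205 fell from 32.4 and 41.9 to 25.1 and 19.8 FPKM (log2 difference -0.70 ± 0.16, adjusted p = 0.00651), a call lost without female week 3 replicate 2 (adjusted p = 0.0725) or vegetative replicate 2 (adjusted p = 0.063). Synthase genes named for cannabidiolic and cannabichromenic acid reached at most 10.7 FPKM in these 4 libraries, in cannabidiolic acid synthase-like 1 (LOC115696966), and their values are uncertain, since how reads shared by similar copies were counted is not known here.

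Terpene and isoprenoid genes included 21 higher and 10 lower of 51, and a median of 0.09. That median was 0.26 with female replicate 2 left out, 0.16 and 0.19 with vegetative replicate 1 and 2 left out and 0.32 with equal totals. HMG-CoA reductase 1 (LOC115702836), which sets the pace of the mevalonate pathway, was at 3.54 and 3.95 FPKM in vegetative and 53.9 and 45.6 FPKM in female week 3 apices (log2 difference 3.42 ± 0.17, adjusted p = 4.87e-07). In the plastid pathway, the DXP reductoisomerase gene (LOC115709371) went the other way, from 36.8 and 46.6 to 14.6 and 14.3 FPKM (log2 difference -1.46 ± 0.19, adjusted p = 2.22e-04). Among terpene synthases, a limonene synthase-like gene (LOC115716064) rose from 16.8 and 14.8 to 78.8 and 68.9 FPKM and an alpha-humulene synthase-like gene (LOC133038934) from 9.54 and 16.4 to 98.7 and 77.1 FPKM, while an alpha-humulene synthase gene (LOC115724563) fell from 12.6 and 10.4 to 0.978 and 0.88 FPKM. Of 66 glandular trichome markers 29 were tested, 17 being higher and 5 lower, and their sum was 1666 and 2032 FPKM in vegetative and 2686 and 2141 FPKM in female week 3 libraries. Vegetative and female sums did not overlap, but the 2 inner values, 2032 and 2141 FPKM, were close. Without the olivetolic acid cyclase-like gene LOC115723438, which held most of the sum, the markers summed to 348 and 345 FPKM in vegetative and 660 and 559 FPKM in female week 3 libraries.

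The glandular trichome and epidermis regulators were split, 10 of 28 being higher and 7 lower. Higher trichome and epidermis genes numbered 4 with female replicate 1 left out, 6 with female replicate 2 left out and 6 with vegetative replicate 2 left out. GLABRA 2 (LOC115707829), a homeobox regulator of epidermal hairs in Arabidopsis, rose from 10.4 and 12.4 to 37.5 and 34 FPKM (log2 difference 1.57 ± 0.13, adjusted p = 1.34e-05). Of the stomatal regulators on the list, TOO MANY MOUTHS (LOC115705057), a receptor of stomatal spacing, fell from 9.96 and 11.8 to 1.95 and 1.86 FPKM, SPEECHLESS (LOC115715630), which starts the stomatal lineage, from 8.72 and 8.18 to 3.74 and 2.96, and FAMA (LOC115722405), which ends it, from 2.21 and 2.51 to 0.214 and 0.638 FPKM. Of the cuticle, wax and lipid transfer list, 21 of 76 genes were higher and 22 lower. With equal totals 28 cuticle and lipid transfer genes were higher and 17 lower, so the balance depended on scaling. 3-ketoacyl-CoA synthase 11 (LOC115695928), which lengthens fatty acids, rose from 8.66 and 6.03 to 119.9 and 97.8 FPKM (log2 difference 3.73 ± 0.19, adjusted p = 5.39e-07), against the falls of the fatty acyl-CoA reductases given above.

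Cell cycle, histone, ribosomal protein and heat shock genes were more often lower than higher in female week 3 apices. Of 105 cell cycle genes 38 fell and 10 rose, with a median of -0.25, which was -0.07 with libraries scaled to the same total against 0.24 over all genes. PCNA (LOC115719066), the clamp of DNA polymerase, was at 136 and 119 FPKM in vegetative and 46.7 and 38.5 FPKM in female week 3 apices (log2 difference -1.56 ± 0.19, adjusted p = 1.49e-04). The replication licensing gene MCM7 (LOC115705574) fell from 15.4 and 14.4 to 4.77 and 4.29 FPKM. Higher cell cycle genes numbered 18 with equal totals. Cyclin-D1-1 (LOC115712518), which promotes entry into the cycle, was the clearest exception, rising from 1.12 and 0.829 to 20.1 and 18.8 FPKM (log2 difference 3.38 ± 0.18, adjusted p = 7.58e-07).

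Histone genes were lower in 16 and higher in 2 of 45, with a median of -0.47 (-0.31 with vegetative replicate 1 left out). Lower histone genes numbered 10 with female replicate 1 left out, 2 with female replicate 2 left out, 4 with vegetative replicate 1 left out and 2 with equal totals. Higher histone genes numbered 1 with female replicate 2 left out and 1 with vegetative replicate 2 left out. With equal totals, where 3 were higher, the histone list kept a median below 0 (-0.23) against 0.24 over all genes. The centromeric histone CENH3 (LOC115705795) fell from 28.8 and 32.1 to 15.7 and 11.6 FPKM, and a histone H1 gene (LOC115712512), the linker histone, rose from 191 and 167 to 351 and 346 FPKM. Cytosolic ribosomal protein genes were lower in 90 and higher in 2 of 179, with a median of -0.46. Their summed level was 65073 and 75752 FPKM in vegetative and 54383 and 49608 FPKM in female week 3 libraries. Higher ribosomal protein genes numbered 1 with female replicate 1 left out, 1 with vegetative replicate 1 left out and 4 with equal totals. With equal totals their median was -0.23. Lower ribosomal protein genes numbered 44 with female replicate 1 left out, 20 with female replicate 2 left out, 24 with vegetative replicate 2 left out and 32 with equal totals. The gene for subunit uL4 (LOC115711374) was at 706 and 731 FPKM in vegetative and 391 and 374 FPKM in female week 3 apices (log2 difference -0.91 ± 0.13, adjusted p = 4.70e-04).

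Heat shock genes were also lower, 29 of 58 against 5 higher, with a median of -0.58. Higher heat shock genes numbered 3 with female replicate 2 left out and 11 with equal totals. Heat shock protein 83 (LOC115706731), a chaperone, was at 46.4 and 30.3 FPKM in vegetative and 1.8 and 1.79 FPKM in female week 3 apices (log2 difference -3.79 ± 0.21, adjusted p = 9.02e-07), and the mitochondrial heat shock 22 kDa protein (LOC115707101) at 89.4 and 42.9 FPKM in vegetative and 4.15 and 3.98 FPKM in female week 3 apices (log2 difference -3.64 ± 0.33, adjusted p = 2.25e-05). In both genes vegetative replicate 1 was above replicate 2, and both female libraries were below both. Heat stress transcription factor A-4c (LOC115696901) rose from 13.6 and 12.6 to 32.7 and 32.3 FPKM.

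Sugar transport and sucrose cleavage genes were higher in 25 and lower in 4 of 48, with a median of 0.57. These shares were 52.1% and 8.3%, against 21.5% and 18.6% over all genes. Lower sugar genes numbered 2 with female replicate 1 left out, 2 with female replicate 2 left out, 2 with vegetative replicate 1 left out, 2 with male week 3 replicate 1 left out and 2 with equal totals. SWEET1 (LOC115710609), an exporter of sugars, was at 33.9 and 30.5 FPKM in vegetative and 223 and 206 FPKM in female week 3 apices (log2 difference 2.70 ± 0.15, adjusted p = 8.49e-07). Sugar transport protein 5 (LOC133031671), an importer, rose from 2.23 and 1.15 to 34 and 31.4 FPKM and SWEET10 (LOC115710321) from 0.192 and 0 to 10.3 and 5.52 FPKM. These carriers were higher in both female libraries than in either vegetative one.

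Enzymes that loosen the cell wall were more often higher. Of 56 expansin and xyloglucan enzyme genes 24 rose and 10 fell, and of 56 pectin enzyme genes 19 rose and 9 fell. Rises thus made up 42.9% and 33.9%, against 21.5% over all genes. Falls made up 17.9% and 16.1%, near the 18.6% over all genes. Lower expansin and xyloglucan genes numbered 6 with female replicate 1 left out, 3 with female replicate 2 left out, 3 with vegetative replicate 1 left out and 5 with equal totals. Lower pectin enzyme genes numbered 4 with female replicate 1 left out and 5 with equal totals. Expansin-A23 (LOC115700526) was at 9.80e-08 and 0.0735 FPKM in vegetative and 21.3 and 21 in female week 3 apices (log2 difference 4.42 ± 0.16, adjusted p = 9.79e-08), and expansin-A8 (LOC115720977) rose from 2.92 and 2.72 to 26.1 and 21.6 FPKM. Pectinesterase 2 (LOC115705851), which removes methyl groups from pectin, rose from 0.951 and 0.453 to 13.2 and 13.2 FPKM, whereas probable pectinesterase 68 (LOC115716251) fell from 94.1 and 117 to 16.7 and 15.5 FPKM (log2 difference -2.63 ± 0.17, adjusted p = 2.25e-06).

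Hormone lists held more higher than lower genes, as did all genes tested, of which 21.5% were higher and 18.6% lower. Higher genes made up 32.7% of auxin, 37.0% of gibberellin and 41.2% of ethylene genes. They were 43.2% of jasmonate, 48.3% of abscisic acid and 51.6% of cytokinin genes. Lower genes made up from 5.9% (ethylene) to 21.6% (jasmonate) of these lists. Of 31 cytokinin genes 16 were higher and 6 lower, with a median of 0.56. Lower cytokinin genes numbered 3 with female replicate 1 left out and 3 with vegetative replicate 2 left out. Cytokinin dehydrogenase 3 (LOC115704143), which breaks cytokinin down, was at 1.06 and 0.463 FPKM in vegetative and 29.9 and 30.4 FPKM in female week 3 apices (log2 difference 4.17 ± 0.18, adjusted p = 2.08e-07), and of the genes for the activating phosphoribohydrolase the most abundant (LOC115701793) rose from 9.33 and 11.5 to 35.8 and 34.8 FPKM. Of 104 auxin genes 34 were higher and 17 lower, with a median of 0.25. Lower auxin genes numbered 11 with female replicate 1 left out, 9 with female replicate 2 left out and 11 with vegetative replicate 1 left out. The response genes SAUR50 (LOC115714709), IAA1 (LOC115722960) and IAA6 (LOC115705334) rose, SAUR50 from 0 and 0 to 15.6 and 8.37, IAA1 from 2.61 and 3.21 to 20.2 and 17.7 and IAA6 from 15.8 and 11.8 to 79.8 and 62.6 FPKM. Auxin response factor 4 (LOC115719139) fell from 63.3 and 50.4 to 23.3 and 23.7 FPKM (log2 difference -1.23 ± 0.16, adjusted p = 2.63e-04).

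Gibberellin genes were higher in 10 and lower in 4 of 27. Gibberellin 20 oxidase 1-B (LOC115712114), which makes gibberellin, rose from 2.26 and 0.877 to 11.7 and 9.21 FPKM, and gibberellin 2-beta-dioxygenase 8 (LOC115701137), which inactivates it, fell from 3.62 and 4.98 to 0.602 and 0.266 FPKM. Ethylene genes were higher in 7 and lower in 1 of 17, with ETHYLENE INSENSITIVE 3-like 1 (LOC115706079), a factor of ethylene signalling, going from 37.1 and 34.3 to 83.3 and 88.4 FPKM. Higher ethylene genes numbered 4 with female replicate 1 left out, 3 with female replicate 2 left out and 11 with equal totals. Lower ethylene genes numbered 0 with female replicate 2 left out and 0 with vegetative replicate 2 left out. Jasmonate genes were higher in 16 and lower in 8 of 37, and TIFY 5A (LOC115696976), of the family of jasmonate repressors, rose from 1.01 and 0.573 to 19.5 and 14.2 FPKM (log2 difference 3.32 ± 0.25, adjusted p = 6.73e-06). Lower jasmonate genes numbered 3 with female replicate 1 left out, 3 with female replicate 2 left out, 5 with vegetative replicate 2 left out and 2 with equal totals.

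Abscisic acid genes were higher in 14 and lower in 5 of 29. Lower abscisic acid genes numbered 2 with female replicate 1 left out, 3 with female replicate 2 left out, 2 with vegetative replicate 2 left out and 3 with equal totals. The 4 largest rises among them were late embryogenesis abundant genes, which protect drying cells, led by one of group 3 (LOC115696873) with 2.46 and 2.08 FPKM in vegetative and 87 and 71.4 FPKM in female week 3 apices (log2 difference 4.61 ± 0.17, adjusted p = 1.28e-07). The receptor PYL4 (LOC115698161) fell from 49.8 and 56.8 to 13.9 and 15.9 FPKM. The salicylate and pathogenesis-related list held 24 higher and 22 lower of 95, close to the shares over all genes as deposited. Higher salicylate-list genes numbered 15 with vegetative replicate 2 left out and 38 with equal totals. Lower salicylate-list genes numbered 14 with female replicate 2 left out. Within it thaumatin-like protein 1 (LOC115717404), a pathogenesis-related protein, rose from 5.12 and 5.61 to 95.2 and 88.8 FPKM and a class V chitinase (LOC115724705) fell from 466 and 506 to 109 and 136 FPKM.

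Meristem homeobox genes were higher in 11 and lower in 1 of 27, with a median of 0.54. Higher meristem homeobox genes numbered 6 with female replicate 2 left out, 6 with vegetative replicate 2 left out and 17 with equal totals. The 1 lower gene was not called with any 1 library of these or of the female week 1 and male week 3 groups left out, or with equal totals. KNOTTED1-like 2 (LOC115719780), a regulator that keeps meristem cells undetermined, was at 4.9 and 4.25 FPKM in vegetative and 11.5 and 13.8 FPKM in female week 3 apices (log2 difference 1.29 ± 0.17, adjusted p = 3.10e-04). WUSCHEL-related homeobox 9 (LOC115697124) rose from 0.466 and 0.539 to 3.81 and 3.23 FPKM. Summed over 7 shoot meristem markers, the level was 24.7 and 24.3 FPKM in vegetative and 36.5 and 44.1 FPKM in female week 3 libraries; WUSCHEL itself, the factor of the stem cell centre, did not pass the level filter.

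Transcription factor families differed in balance. Higher genes made up 45.2% of WRKY, 57.1% of NAC and 45.3% of MYB genes, against 21.5% over all genes. Lower genes made up 0%, 9.5% and 12.5%, against 18.6%. WRKY genes, known from defence and from trichome and seed coat development, were higher in 14 and lower in none of 31. Higher WRKY genes numbered 7 with female replicate 1 left out, 6 with female replicate 2 left out and 8 with vegetative replicate 2 left out. Lower WRKY genes numbered 2 with vegetative replicate 2 left out. WRKY 44 (LOC115711535), a counterpart of an Arabidopsis trichome and seed coat factor, rose from 19.9 and 21.5 to 47.8 and 42.4 FPKM (log2 difference 1.09 ± 0.11, adjusted p = 6.71e-05). NAC genes were higher in 24 and lower in 4 of 42, and NAC 2 (LOC115723252) rose from 0.831 and 0.731 to 8.86 and 8.99 FPKM. Lower NAC genes numbered 1 with female replicate 1 left out, 0 with female replicate 2 left out, 2 with vegetative replicate 1 left out and 2 with vegetative replicate 2 left out. MYB genes were higher in 29 and lower in 8 of 64. Lower MYB genes numbered 4 with female replicate 1 left out and 5 with vegetative replicate 1 left out. MYB1 (LOC115704690) was at 0.746 and 0.468 FPKM in vegetative and 28.8 and 21.2 FPKM in female week 3 apices (log2 difference 4.01 ± 0.29, adjusted p = 6.17e-06), and MYB1R1 (LOC115702108) fell from 33.4 and 40.6 to 5.13 and 4.2 FPKM.

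SQUAMOSA promoter-binding genes, which act in the change of growth phase, were higher in 9 and lower in 3 of 16. Higher genes made up 56.25% of these, 0% of TCP and 39.4% of bHLH genes, against 21.5% over all genes. Lower genes made up 18.75%, 20% and 19.7%, near the 18.6% over all genes. Squamosa promoter-binding protein 1 (LOC115700826) rose from 8.92 and 6.58 to 64.3 and 52.7 FPKM (log2 difference 2.77 ± 0.17, adjusted p = 2.19e-06), and SPL9 (LOC115701122), which promotes flowering in Arabidopsis, fell from 85.6 and 74.8 to 38.3 and 36.3 FPKM (log2 difference -1.08 ± 0.14, adjusted p = 2.84e-04). TCP genes, regulators of organ growth, were higher in none and lower in 3 of 15, TCP1 (LOC115698877) falling from 7.32 and 10.4 to 1.5 and 1.94 FPKM. With equal totals 1 TCP gene was higher and 2 lower, and the list's median changed sign from -0.13 to 0.07. bHLH genes were higher in 26 and lower in 13 of 66, and BHLH42 (LOC115703590), named like a partner of MYB proteins in flavonoid control, rose from 2.07 and 1.24 to 19.1 and 16.8 FPKM. Higher bHLH genes numbered 14 with female replicate 1 left out, 14 with female replicate 2 left out and 17 with vegetative replicate 2 left out. Lower bHLH genes numbered 8 with female replicate 2 left out and 8 with vegetative replicate 2 left out. ERF genes as deposited were close to the background, with 13 higher and 11 lower of 52. Higher ERF genes numbered 6 with female replicate 1 left out, 7 with female replicate 2 left out and 22 with equal totals. Lower ERF genes numbered 7 with female replicate 2 left out. So were circadian clock genes, 5 higher and 5 lower of 23, where ELF4-LIKE 3 (LOC115707722) rose from 18.5 and 17.3 to 46.9 and 37.9 FPKM. Higher clock genes numbered 3 with female replicate 1 left out, 2 with female replicate 2 left out and 10 with equal totals. Lower clock genes numbered 2 with female replicate 1 left out, 2 with female replicate 2 left out, 2 with vegetative replicate 2 left out, 3 with male week 3 replicate 1 left out, 3 with male week 3 replicate 2 left out and 3 with equal totals.

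Metal and glutathione genes were higher in 45 and lower in 23 of 121, or 37.2% and 19.0%, against 21.5% and 18.6% over all genes. Genes described as ferritin-like catalase Nec2, a nectar protein in other plants, went both ways: LOC115723057 fell from 39 and 49.1 to 0.609 and 0.055 FPKM (log2 difference -5.10 ± 0.23, adjusted p = 2.49e-07), and LOC115725418 rose from 0.502 and 0.513 to 22.4 and 17.1 FPKM (log2 difference 3.77 ± 0.22, adjusted p = 1.38e-06). Of 34 germin-like genes, 10 were tested, 5 being higher and 4 lower. Lower germin-like genes numbered 1 with female replicate 1 left out, 1 with female replicate 2 left out, 1 with vegetative replicate 2 left out and 2 with equal totals. In contrast to the rises given above, an abundant germin-like gene (LOC115704500) fell from 1906 and 2573 to 546 and 498 FPKM (log2 difference -2.08 ± 0.26, adjusted p = 1.88e-04).

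A group of genes went from near silence to clear expression, and a smaller group the reverse. Called genes with a mean under 1 FPKM in vegetative and at least 10 FPKM in female week 3 apices numbered 72, of which 62 had a named product, and 20 genes showed the reverse. Among the 72 was the short snRNA gene LOC115721564, described at the end. The rule itself sets the vegetative and female week 3 levels of both sets. Choosing genes by their female week 3 level also widens its distance from the other groups. The median level of the 72 was 0.366 FPKM in vegetative apices, 1.23 at week 1 of female flowering and 19.0 at week 3. Male week 3 apices had a median of 2.44 FPKM for these genes. Of these 72, 1 was at 10 FPKM or more in female week 1, the CAULIFLOWER A gene LOC115702300, while 29 were still under 1 FPKM there. In male week 3 apices 16 were at 10 FPKM or more and 22 under 1 FPKM. The median of the 20 genes that went the other way was 25.9 FPKM in vegetative apices, 9.89 at week 1 of female flowering and 0.462 at week 3. For these, male week 3 apices had a median of 1.08 FPKM.

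**Figure D5:**
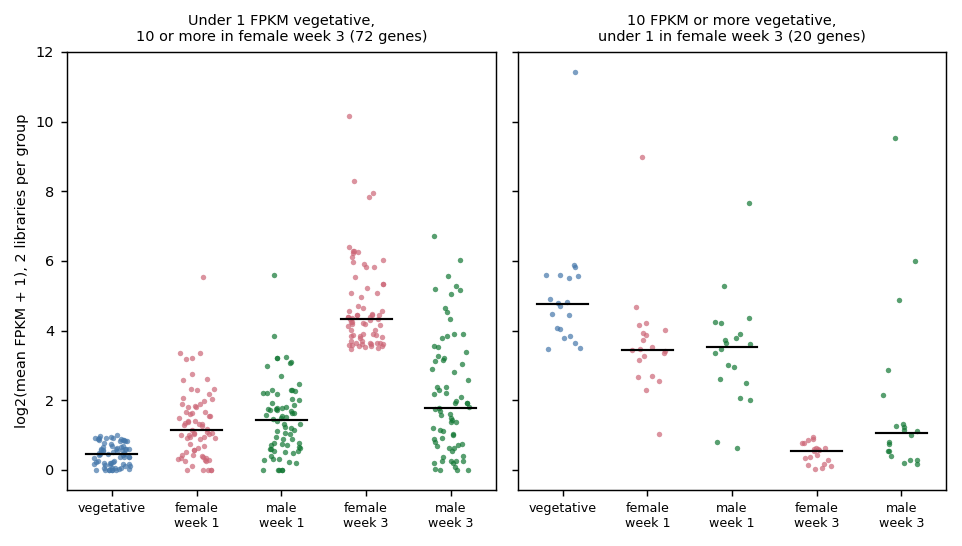
Mean level of each gene in the 5 groups as log2(mean FPKM + 1), for the 72 called genes under 1 FPKM in vegetative and at 10 FPKM or more in female week 3 apices (left) and the 20 with the reverse (right); bars are medians and points are spread sideways for display. On the left most female week 1 points stay low, at a median of 1.23 FPKM against 19.0 in female week 3, where the rule required 10 FPKM or more.

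Tested directly against female week 1, with the vegetative libraries cancelling out, 6490 genes or 38.4% differed in female week 3, and 3451 or 20.4% were higher there. That count of 6490 was 3872 and 4082 with female week 3 replicate 1 or 2 left out, and 4072 with female week 1 replicate 1 left out. Against male week 3, 9800 genes or 58% differed, and 5221 or 30.9% were higher in female week 3. The level filter used only vegetative and female week 3 apices. Genes expressed only in male week 3 were thus left out, which tilts the balance towards genes higher in female week 3. With a filter over all 5 groups, 11040 genes differed from male week 3. These comparisons share the female week 3 libraries with the comparison above. The germin-like gene LOC115718819 was at 0.534 and 0.444 FPKM at week 1 of female flowering and 0.42 and 0.845 FPKM in male week 3, and female week 3 exceeded these by 7.71 ± 0.38 (adjusted p = 1.14e-06) and 7.59 ± 0.38 log2 units (adjusted p = 7.86e-08). Dihydroflavonol 4-reductase (LOC115710150) had already reached 48.7 and 59.6 FPKM at week 1 of female flowering and was at 118 and 90.8 FPKM in male week 3, both below female week 3 (log2 differences 3.71 ± 0.30 and 2.78 ± 0.30). AGL11 (LOC133031811) was at 8.17 and 10.2 FPKM at week 1 of female flowering and 1.17 and 0.846 FPKM in male week 3, the difference to male week 3 being 5.28 ± 0.22 log2 units (adjusted p = 2.21e-08). In male week 1 AGL11 stood near its female week 1 level, at 9.61 and 6.83 FPKM.

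The 57 tested photosynthesis genes summed to 51279 and 40227 FPKM at week 1 of female flowering and to 10957 and 13099 FPKM in male week 3. In male week 3 apices 54 of the 57 had a mean below that of vegetative apices, Rubisco small subunit 3 (LOC115725363) being an exception at 95.5 and 85.7 against 17.7 and 24.2 FPKM. The abundant Rubisco small subunit gene (LOC115714527) was at 10604 and 8243 FPKM at week 1 of female flowering and 1062 and 1393 FPKM in male week 3, and female week 3 lay below week 1 by -2.32 ± 0.32 log2 units. The cell wall-loosening gene expansin-A23 (LOC115700526) was at 0.275 and 0.41 FPKM at week 1 of female flowering and 0.228 and 0.144 FPKM in male week 3, the difference to male week 3 being 4.22 ± 0.16 (adjusted p = 1.28e-08). Mulatexin (LOC115715128) was at 907 and 96.2 FPKM at week 1 of female flowering and 0.121 and 0.791 FPKM in male week 3, so its low level was seen in both week 3 groups.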

How the data were processed

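Messenger RNA was measured in 10 libraries, 2 per group; a plant RNA kit with DNase was used, per the labels' protocols, before Illumina libraries were made. Neither an aligner nor a counting tool is named here: both are not given in the sources used. The authors deposited 1 value per gene and library, fragments per length and depth (FPKM) as read from the values, since no unit is named; RPKM cannot be told apart from it. The authors' deposited log2 fold changes and p-values were only set beside the calls made here. The percent identity to the closest Arabidopsis protein is also deposited by the authors. Coordinates are those of the table, build ASM2916894v1, per the file headers; 34658 of 35192 genes matched the reference gene table of that assembly, 16909 had a named product and 2 lines were empty.

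Genes with a mean of 1 FPKM or more in vegetative or female week 3 apices were fitted as log2(FPKM + 1) in R 4.3.3 by limma 3.58.1. The model gave each of the 5 groups its own mean, used all 10 libraries and had a trend and robust moderation (5 residual degrees of freedom), 2-sided. An exact permutation test of a single value cannot reach 0.05 with 2 against 2 libraries and was not run. In simulated data for this comparison (16886 genes), 85.2%, 98.8%, 99.6% and 99.6% of 250 genes changed by 1, 2, 3 and 4 log2 units were recovered, and 43 of 83430 unchanged genes were called. Few genes were changed there, all upward and with independent normal noise, whereas 40.1% of genes were called in the real comparison. The simulated shares therefore do not give the rate of false calls in the real comparison. Depth relative to vegetative replicate 1, estimated from low values, was 0.898 in vegetative replicate 2 and 1.21 and 1.22 in female week 3.

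Members of the 37 gene lists were found by product description or Arabidopsis match. Lists and tests were chosen with earlier results of these data known. Named genes were the 15 largest rises and 15 largest falls (called, product named, groups not overlapping, 10 FPKM or more in the higher group), up to 4 called members per list and direction, the floral MADS-box genes and the markers, with a subset printed and 5 genes added after values were seen. Alternatives covered the pseudocount, filter, scaling, moderation, samples and replicates; leaving out male week 3 or female week 1 libraries and using protein-coding genes only were chosen after seeing the data.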

Additional observations from a re-analysis of the deposited data

Results flagged for a closer look

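The difference from vegetative apices was not the same in female week 3 as in female week 1 for 6490 genes, or in female week 3 as in male week 3 for 9800 genes, by limma contrasts in which the vegetative libraries cancel out. Both counts are of the 16886 tested genes, so genes expressed only in male week 3 are not among the 9800. SVP (LOC115721274) was at 14 and 10.4 FPKM at week 1 of female flowering and 32.4 and 24.2 FPKM in male week 3, and female week 3 lay below male week 3 by -4.74 ± 0.18 log2 units (adjusted p = 1.62e-08). JOINTLESS (LOC115714329) was at 4.84 and 5.77 FPKM at week 1 of female flowering and at 69.1 and 56.9 FPKM in male week 3, with a difference to male week 3 of -5.39 ± 0.16 (adjusted p = 3.99e-09). Thus both genes were low in female week 3 and not in male week 3 apices. The putative cell wall protein LOC115700282 was at 429.7 and 416 FPKM at week 1 of female flowering and 754 and 949 FPKM in male week 3 (-6.30 ± 0.27, adjusted p = 3.01e-08), and the ferredoxin-NADP reductase gene LOC115695589 (root isozyme) at 10.3 and 6.78 and 403 and 1079.7 FPKM, against 0.0721 and 0 in female week 3 (-9.32 ± 0.36, adjusted p = 1.63e-08). These 4 genes were chosen after their values were seen.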

How the results depend on the processing

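Of 361 named genes, 343 were called and 286 were called under every setting in which they were tested; none changed sign. The count of 6764 stayed within 1.5 times with other pseudocounts (6669 and 6764), filters (5759 to 6690), moderation (6627), median-ratio scaling (6804), the 4 libraries alone (7932), no male week 3 libraries (6775) or protein-coding genes only (6686). Leaving out 1 female week 3, vegetative, female week 1 or male week 3 library gave 4171 to 6788 genes in all, 2296 to 3688 higher and 1786 to 3100.0 lower, with 3872 to 6526 genes against female week 1. With equal totals 5871 genes were higher and 1953 lower. Depth in reads is unknown, so low values have no counting interval.

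The difference between replicates 1 and 2 in vegetative apices correlated with that in female week 3 apices at 0.113 across the tested genes. Between other pairs of groups this correlation ran from -0.451 to 0.262. With 2 libraries per group it rests on a single difference per group, and the labels do not tie the numbers to plants or batches. A fit with the replicate number as a block called 6375 genes, 6308 of them shared with the calls without it.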

Other observations

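The following 5 genes, each a member of a list above, were put together after their values were seen, so they say nothing of a group. BHLH42 (LOC115703590), closest to TRANSPARENT TESTA 8, was at 2.07 and 1.24 FPKM in vegetative and 19.1 and 16.8 FPKM in female week 3 apices (log2 difference 2.85 ± 0.19, adjusted p = 3.43e-06). WRKY 44 (LOC115711535), closest to TRANSPARENT TESTA GLABRA 2, laccase-15 (LOC115705062), closest to TRANSPARENT TESTA 10, and the FBP24 genes, closest to the Arabidopsis Bsister gene, had log2 differences of 1.09, 5.41, 3.53 and 3.57.

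Of 1608 called genes without a named product, 791 were higher and 817 lower. The largest rise was that of an snRNA gene of 103 bases (LOC115721564), listed at 0 in all other libraries and at 1139 and 1169 FPKM in female week 3, with a log2 difference of 10.17 ± 0.14 (adjusted p = 7.50e-11); the authors' deposited table gives it a log2 fold change of 0 and a p-value of 1 for the same pair of groups. Levels of other short genes could differ widely between replicates. The snoRNA gene LOC115701685, of 115 bases, was at 315 and 0 FPKM in female week 3. LOC115701683, of the same length, was at 105 and 104 FPKM there but at 65.8 and 0 FPKM in vegetative apices. The next largest rise was that of LOC115722029, from 9.96 and 4.58 to 406 and 324 FPKM. The largest falls were those of LOC115709849, from 224 and 431 to 4.32 and 4.36 FPKM, and LOC133032175, from 79.8 and 134 to 7.25 and 5.53 FPKM. The gene with the highest level in vegetative apices was an rRNA gene (LOC115701758), at 8401 and 17117 FPKM in vegetative and 3929.7 and 4293 FPKM in female week 3 apices (log2 difference -1.55 ± 0.31, adjusted p = 0.00318), with values from 8954 to 12986 FPKM in the female week 1, male week 1 and male week 3 libraries.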
